A study of Mus musculus with 6 samples.

Results

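Fos, Fosb, Fosl1, Fosl2, Jun, Junb, Jund, Atf3, Egr1 and Ier2 are 10 AP-1 and immediate early genes. Cells switch many of them on within minutes of a stimulus, a stress or the dissociation of a tissue. The 10 genes are described here in hair follicle bulge stem cells (bulge SCs) with and without integrin-linked kinase (ILK). They were taken as a given list and matched by Ensembl identifier to the deposited expression table, in which all 10 of them were found among 43274 genes. Control bulge SCs had the genotype given as ILK +/-, which the study describes as 1 floxed Ilk allele with the K5-Cre transgene. ILK-K5 bulge SCs were ILK -/-, with both alleles floxed and the same transgene. The keratin 5 promoter drives Cre in the basal epidermis and the hair follicle from before birth, so other cells of the skin kept ILK and the bulge formed without it. All mice were 21 days old, a time when the control follicles rest. Cells with CD34 and high α6 integrin were sorted from trypsin-dissociated epidermis directly into TRIzol LS, and polyA RNA was sequenced after amplification of the cDNA in 3 control and 3 ILK-K5 libraries. Nothing in the labels says whether a library came from 1 animal, so that the p-values below measure only the spread between these libraries, which may be technical.

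AP-1 is a family of dimers that bind DNA through a basic leucine zipper. Jun, Junb and Jund encode the Jun subunits, which pair with one another or with a Fos subunit, and Fos, Fosb, Fosl1 (Fra-1) and Fosl2 (Fra-2) encode the Fos subunits, which need a Jun partner. Atf3 encodes a stress-induced leucine zipper factor that also pairs with Jun proteins. Egr1, a zinc finger factor, and Ier2, a small nuclear protein, are immediate early genes outside the AP-1 family. MAP kinases and the serum response factor with its Elk partners switch most of these genes on, and their RNAs last only a short time. In skin, AP-1 takes part in keratinocyte differentiation and in the response to wounding, and enzymatic dissociation of tissue is known to raise the RNA of many of these genes.

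Reference promoter windows were taken from RefSeq for build GRCm38.p6, each 300 bases long and reaching from the proximal promoter past the annotated start, for the 7 of 10 genes that had one. Fosl1, Egr1 and Ier2 had no window. The Jund window, chr8:70697489-70697788 on the plus strand, ends before the start of the gene in GENCODE at 70698949. The 4 windows below are shown because their genes varied together in the libraries while the windows differ in the motifs that they hold. Fos lies on the plus strand of chromosome 12 (window chr12:85473640-85473939), and Jun on the minus strand of chromosome 4 (window chr4:95052173-95052472). Junb lies on the minus strand of chromosome 8 (window chr8:84978699-84978998), and Atf3 on the minus strand of chromosome 1 (window chr1:191183284-191183583, at a start inside the longer GENCODE gene). Each is printed in the direction of transcription. Capitals mark motifs found on either strand. They are TGACG, the core that a cAMP response element is built from, TGACATCA, a variant of the AP-1 site, and the letters TATAAA that position the start of transcription.
Fos: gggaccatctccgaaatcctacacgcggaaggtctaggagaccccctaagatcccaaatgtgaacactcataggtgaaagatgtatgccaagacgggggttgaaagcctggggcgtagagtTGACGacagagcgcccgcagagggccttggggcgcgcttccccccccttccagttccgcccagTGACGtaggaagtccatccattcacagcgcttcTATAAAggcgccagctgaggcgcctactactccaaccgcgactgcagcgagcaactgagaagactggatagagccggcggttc
Jun: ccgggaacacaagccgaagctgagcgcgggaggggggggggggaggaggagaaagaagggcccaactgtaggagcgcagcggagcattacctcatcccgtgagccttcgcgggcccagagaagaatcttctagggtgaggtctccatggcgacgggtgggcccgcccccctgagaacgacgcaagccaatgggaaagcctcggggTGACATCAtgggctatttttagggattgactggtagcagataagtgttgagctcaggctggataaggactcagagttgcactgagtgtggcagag
Junb: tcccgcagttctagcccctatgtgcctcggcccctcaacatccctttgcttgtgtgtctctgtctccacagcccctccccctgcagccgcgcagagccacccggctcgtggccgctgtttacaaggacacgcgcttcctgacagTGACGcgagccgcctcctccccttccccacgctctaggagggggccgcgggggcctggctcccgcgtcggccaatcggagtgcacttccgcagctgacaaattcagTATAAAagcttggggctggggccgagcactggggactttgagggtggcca
Atf3: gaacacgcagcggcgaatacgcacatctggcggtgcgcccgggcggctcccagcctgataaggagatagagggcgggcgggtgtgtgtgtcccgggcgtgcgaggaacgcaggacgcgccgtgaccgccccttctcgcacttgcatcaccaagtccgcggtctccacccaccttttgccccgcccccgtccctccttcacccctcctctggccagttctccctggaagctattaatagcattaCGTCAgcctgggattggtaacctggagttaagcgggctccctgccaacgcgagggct
With the annotated start as position 0, the Fos window held TGACG at -129 to -125 and at -66 to -62, and TATAAA at -33 to -28. The Jun window held TGACATCA at -45 to -38. The Junb window held TGACG at -106 to -102, and its TATAAA lay at 0 to 5, with the RefSeq start upstream of the one in GENCODE. The Atf3 window held the reverse complement of TGACG at -7 to -3. Among all 32851 windows of this length, TGACG occurred in 20.8%, TGACATCA in 3.62% and TATAAA in 13.6%. The Fosb window held 1 TGACG, and the windows of Fosl2 and, upstream of its GENCODE start, Jund held none. GGGCGG, a GC box, was present in the windows of Fos, Fosb, Fosl2, Jun and Atf3 and in 35.7% of all windows. GCGNGGGCG, an Egr site, overlapped a GC box in Fosb and in Fosl2 and occurred in 5.55% of all windows. No full cAMP response element TGACGTCA, CArG box (the site of the serum response factor) or TGANTCA was found in any of the 7 windows, where 1.79%, 1.63% and 7.81% of all windows hold one. The windows cover only 300 bases each, so sites farther from the start were not searched. Egr1 had no window, and the Fosl2 window, like that of Atf3, lies inside the longer GENCODE gene. The motif matches describe the windows and were not tested for function.

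Reads counted on genes numbered 8228019 to 11969072 per library, and 1 read corresponded to 0.726 to 1.52 normalized counts. Mitochondrial genes took 11.5% to 27.6% of the reads, and control library 2 had both the highest share and the lowest depth. Ilk had 10.6, 16.7 and 38.5 normalized counts in the 3 control libraries, given in the order of their numbers, and 14.8, 30.9 and 29.2 in the 3 ILK-K5 libraries. Since 89.7% of its exonic sequence overlaps other genes on the opposite strand, this gene did not check the genotypes. The bulge markers Krt15, Lhx2, Sox9, Itga6 and Cd34 were read in all 6 libraries, Krt15 at 10084 to 97406 normalized counts. Over all 16368 genes tested, 479 (2.93%) were called higher and 98 (0.599%) lower in ILK-K5 cells, together 3.53%, with the limit for adjusted p-values set at 0.05 (limma, Benjamini-Hochberg method).

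The 10 genes were read in all 6 libraries, at levels that differed widely between genes. Levels of different genes are compared per length, as deposited FPKM, which here scale the normalized counts by gene length. Fos, Atf3, Egr1 and Jun led the list, with means of 183, 133, 146 and 140 FPKM in control and 214, 200, 161 and 164 FPKM in ILK-K5 cells. Their mean FPKM over the 6 libraries lay above that of 98.2% or more of the tested genes. Junb followed with 45.3 ± 56.7 FPKM in control and 47.2 ± 29.1 FPKM in ILK-K5 cells (SD, n = 3 each), and Fosb with 32.7 ± 24.8 and 44.7 ± 3.4 FPKM. Fosl2 (23.0 and 22.9 FPKM), Jund (15.9 and 22.6 FPKM), Ier2 (13.1 and 17.2 FPKM) and Fosl1 (9.7 and 7.4 FPKM) had the lowest means. For Ier2 and Fosl1 the mean FPKM over the 6 libraries lay above that of 81.8% and 70.5% of the tested genes. Genes on the opposite strand share 52.6% of the exon bases of Jund and 57.2% of those of Fosl1. Reads in these parts may be missing from the FPKM of Jund and Fosl1. The 4 leading genes differed from one another by less than the larger of their SDs across libraries, and so did Junb and Fosb, and Fosl2, Jund and Ier2.

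Within a library the balance of Fos and Jun was steadier than their levels. Fos was above Jun in each of the 6 libraries, with an FPKM ratio of 1.10 to 1.55. The summed FPKM of the 4 Fos family genes was 1.04 to 1.54 times that of the 3 Jun family genes, with means of 1.35 ± 0.21 in control and 1.30 ± 0.23 in ILK-K5 libraries (SD, n = 3 each). Jun made up 67.1% to 77.7% of the FPKM of its family in every library. Of the Fos family, Fos itself made up 82.9%, 57.8% and 56.0% in the controls, and 78.2%, 75.8% and 64.8% in the ILK-K5 libraries. The control library with the lowest Fos level, library 2, had the highest share of Fosl2 (23.5%) and of Fosl1 (10.9%) in the Fos family. A low Fos level raises these shares by itself. In control libraries 1 to 3 Fosl2 was at 22.6, 20.2 and 26.2 FPKM and Fosl1 at 3.7, 9.3 and 16.0 FPKM, so neither was highest in library 2.

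**Figure D1:**
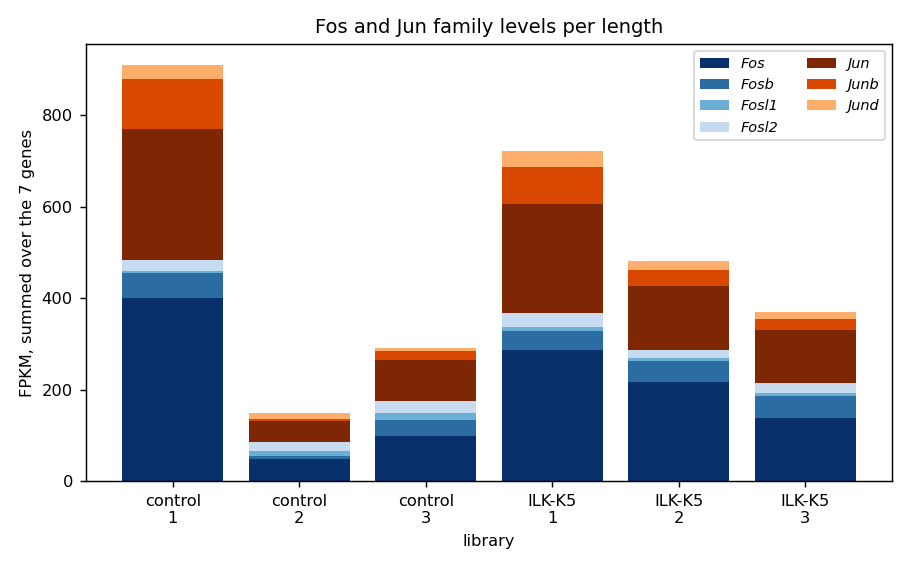
FPKM of the 4 Fos family genes (blue shades) and the 3 Jun family genes (brown and orange shades), stacked for each of the 6 libraries. Fos and Jun form most of each bar, the summed level is highest in control library 1 and lowest in control library 2, and the ILK-K5 libraries lie between these.

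Among the Fos subunits, Fos had 9172, 1137 and 2262 normalized counts in the controls and 6575, 4975 and 3190 in the ILK-K5 libraries. Control library 1 lay above every ILK-K5 library and the other two below, so that the genotypes overlapped. The log2 fold change was 0.71 (standard error 0.66, 95% confidence interval -0.78 to 2.21, adjusted p = 0.807 in limma). Fosb, whose product resembles Fos, had 2051, 246 and 1286 normalized counts in control and 1496, 1667 and 1739 in ILK-K5 libraries. Its ILK-K5 libraries lay close together, 1.16-fold from lowest to highest, within a control range of 8.33-fold. For Fosb the log2 fold change was 0.91 (standard error 0.65, 95% confidence interval -0.56 to 2.38, adjusted p = 0.723 in limma). Fosl1, which encodes Fra-1, had 60.8, 155 and 266 normalized counts in control and 164, 117 and 91.6 in ILK-K5 libraries. Here control library 1 was the lowest of all 6 and control library 3 the highest, unlike for Fos. The log2 fold change of Fosl1 was -0.17 (standard error 0.53, 95% confidence interval -1.37 to 1.02, adjusted p = 0.954 in limma). Fosl2, which encodes Fra-2, had 1289, 1153 and 1497 normalized counts in control and 1661, 962 and 1293 in ILK-K5 libraries, the narrowest range of the 10 genes. Its log2 fold change was -0.036 (standard error 0.28, 95% confidence interval -0.67 to 0.60, adjusted p = 0.983 in limma). The sign for Fosl1 rested on single libraries, which gave 0.31 when control library 3 was left out and 0.022 when ILK-K5 library 3 was. That of Fosl2 did too, with 0.063 when control library 3 was left out and 0.17 when ILK-K5 library 2 was. Ccdc85b on the opposite strand shares 57.2% of the exonic sequence of Fosl1 and had at most 5.4 normalized counts in any library.

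Among the Jun subunits, Jun had 8914, 1402 and 2762 normalized counts in the controls and 7433, 4341 and 3566 in the ILK-K5 libraries. Its libraries followed the order of Fos, and its log2 fold change was 0.58 (standard error 0.60, 95% confidence interval -0.78 to 1.94, adjusted p = 0.835 in limma). Junb, which can oppose Jun at AP-1 sites, had 1980, 105 and 355 normalized counts in control and 1440, 641 and 460 in ILK-K5 libraries. Its control libraries spanned 18.9-fold, more than those of any other gene of the 10, and its log2 fold change was 0.84 (standard error 0.90, 95% confidence interval -1.19 to 2.87, adjusted p = 0.840 in limma). Jund, often the most evenly expressed Jun gene, had 854, 327 and 160 normalized counts in control and 970, 520 and 410 in ILK-K5 libraries. For this gene control library 3 was the lowest, not control library 2. Its log2 fold change was 0.73 (standard error 0.57, 95% confidence interval -0.56 to 2.02, adjusted p = 0.759 in limma). Without control library 3 the value for Jund was 0.162, without ILK-K5 library 1 it was 0.377 and without control library 1 it was 1.365. Exons of Gm11175 on the opposite strand share 52.6% of the exon bases of Jund, with at most 9.4 normalized counts in any library. For Jun and Junb the shared parts were 7.28% (Junos) and 7.52% (Prdx2). Whether reads were counted by strand is not given in the sources used here. The counts of Jund and Fosl1, and their shares of the Jun and Fos families, hold only with that limit.

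Outside the Fos and Jun families, Atf3 had 4680, 1157 and 2537 normalized counts in the controls and 5402, 3274 and 3914 in the ILK-K5 libraries. Here an ILK-K5 library was the highest, and only control library 1 overlapped the ILK-K5 range. The log2 fold change was 0.78 (standard error 0.47, 95% confidence interval -0.29 to 1.84), with the lowest adjusted p-value of the 10 genes (0.637 in limma). Egr1, which had the most reads of the 10, had 12900, 2047 and 4158 normalized counts in control and 7578, 7500 and 6040 in ILK-K5 libraries. Its ILK-K5 libraries differed by 1.25-fold and its control libraries by 6.30-fold, and the log2 fold change was 0.55 (standard error 0.57, 95% confidence interval -0.74 to 1.84, adjusted p = 0.835 in limma). Ier2 had 380, 41.1 and 164 normalized counts in control and 327, 241 and 197 in ILK-K5 libraries. The value of 41.1 in control library 2 rests on 27 reads. The log2 fold change of Ier2 was 0.86 (standard error 0.68, 95% confidence interval -0.69 to 2.40, adjusted p = 0.765 in limma).

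**Figure D2:**
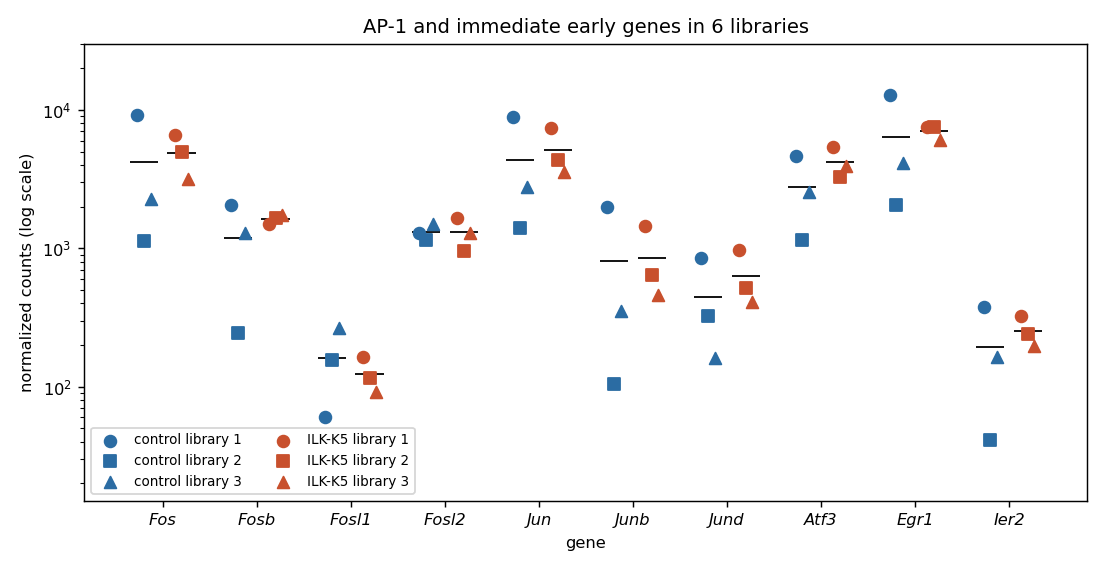
Normalized counts of the 10 genes on a logarithmic axis, with control libraries in blue and ILK-K5 libraries in orange, library number by marker shape, and a bar at each genotype mean (n = 3). The genotypes overlap for each of the 10 genes, and the control libraries of Fos, Fosb, Jun, Junb, Egr1 and Ier2 are spread 6.30-fold to 18.9-fold.

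None of the 10 genes (0 of 10) was called in either direction by limma, beside 2.93% of all tested genes called higher and 0.599% called lower. At an unadjusted p-value under 0.05 there was also none, beside 12.3% of all genes. None had genotypes that did not overlap, beside 10.9% of all genes with every ILK-K5 library higher and 6.95% with every ILK-K5 library lower, together 17.9%. The log2 fold change was positive for 8 of 10 genes, beside 50.5% of all genes, with a median of 0.72 for the list and 0.0054 for all genes. The confidence intervals include 0 for each gene and reach above 1.8 on the log2 scale for 8 of 10, with lower limits between -1.19 and -0.29 for these 8. These libraries thus allow a fall, no change or a rise of more than 3-fold. Count-based tests on the recovered reads called none of the 10 either, where DESeq2 called 4.72% of genes higher and 1.71% lower and edgeR's quasi-likelihood test 2.58% and 0.532%. Their fold changes, which compare arithmetic means, were smaller, with a median over the 10 genes of 0.19 in DESeq2 and 0.23 in edgeR. For Fos the ratio of the genotype means was 1.17, and for Junb it was 1.04.

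For 7 of the 10 genes the size of the difference turned on control libraries 1 and 2, and for 4 of these the sign did too. Without control library 1 the log2 fold change of Fos was 1.55 (adjusted p = 0.094), of Jun 1.30 (0.186), of Junb 1.95 (0.152), of Fosb 1.53 (0.298), of Atf3 1.26 (0.172), of Egr1 1.26 (0.133) and of Ier2 1.59 (0.238), all with limma. Without control library 2 the same genes gave 0.047, -0.029, -0.158, 0.0054, 0.25, -0.065 and -0.0033. The sample descriptions carry a different number for each replicate, the same in both genotypes, and the numbers of replicates 2 and 3 end alike. The descriptions do not say what the numbers mark. Within replicates 2 and 3 alone, the log2 fold changes were 1.31 for Fos (adjusted p = 0.211), 0.999 for Jun (0.328), 1.49 for Junb (0.305), 1.59 for Fosb (0.397), 1.01 for Jund (0.340), 1.06 for Atf3 (0.328), 1.21 for Egr1 (0.249), 1.39 for Ier2 (0.421), -0.97 for Fosl1 (0.350) and -0.24 for Fosl2 (0.833) with limma. In that fit 2.46% of genes were called higher and 0.455% lower. In replicate 1, with 1 library of each genotype and no test, Fos, Fosb, Jun, Junb, Egr1 and Ier2 were lower in the ILK-K5 library.

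**Figure D3:**
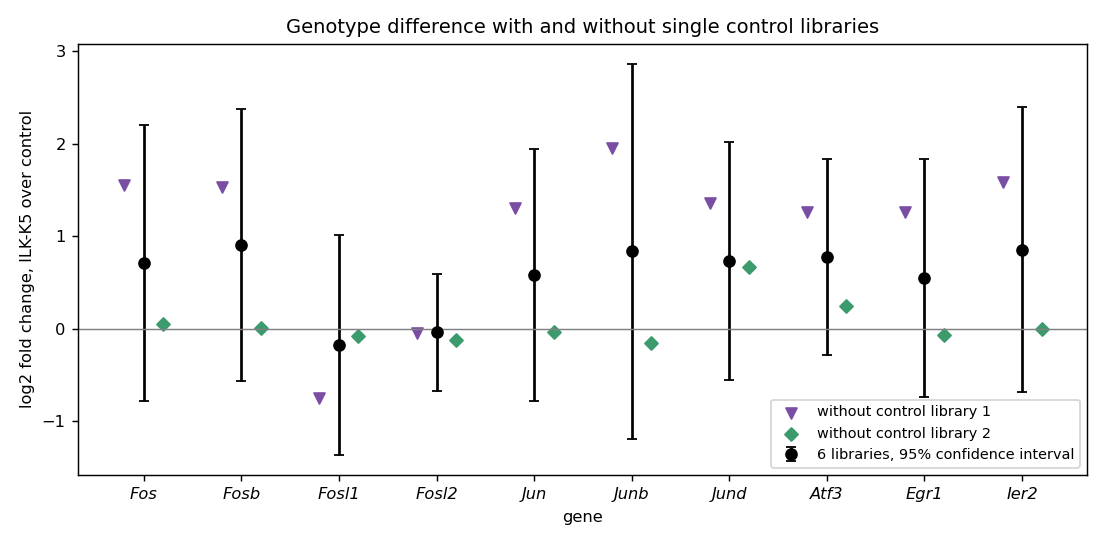
Log2 fold change of the 10 genes (ILK-K5 over control) from all 6 libraries with its 95% confidence interval (black), without control library 1 (purple) and without control library 2 (green). For 8 of the genes the value is higher without control library 1 and lower without control library 2, and for Fosl2 neither moves it by more than 0.1.

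Most of the variation lay between libraries of one genotype and was shared by most of the genes. Fos, Jun, Junb, Egr1 and Ier2 had one and the same order over the 6 libraries, from control library 1 through ILK-K5 libraries 1, 2 and 3 to control library 3 and control library 2. This order was found for 70 of the 16368 genes tested (0.428%). Control library 1 was the highest and control library 2 the lowest of the controls for 7 of 10 genes (70.0%), namely Fos, Fosb, Jun, Junb, Atf3, Egr1 and Ier2, beside 16.3% of all genes. ILK-K5 library 1 was the highest of its genotype for 9 of 10 genes, beside 41.8% of all genes, with Fosb as the exception. Fosl1, Fosl2 and Jund did not have the control order. These orders were read from the 10 genes themselves, so the shares of all genes beside them are descriptions and not a test.

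The spread was wide among control libraries and, in its median, near that of all genes among ILK-K5 libraries. The median SD of log2 values over the 10 genes was 1.34 in control libraries, against 0.60 for all genes, and 0.41 in ILK-K5 libraries, against 0.41 for all genes. The SD of Junb in control libraries exceeded that of 97.5% of all genes and of 99.9% of genes of similar mean, and that of Fosl2 exceeded only 8.22% of all genes. Beside genes of similar mean, the SD in ILK-K5 libraries was not low for every gene. It exceeded that of 94.8% of such genes for Junb, 86.9% for Jund, 80.7% for Jun and 78.1% for Fos, but only 22.1% for Egr1 and 12.8% for Fosb. The 10 genes together took 0.418% of the reads of control library 1 (95% exact binomial interval 0.414% to 0.422%), 0.062% of control library 2 (0.060% to 0.064%) and 0.178% of control library 3 (0.176% to 0.180%). The shares were 0.340% (0.336% to 0.344%), 0.279% (0.276% to 0.283%) and 0.237% (0.234% to 0.241%) in ILK-K5 libraries 1 to 3. These intervals cover counting error only, and the libraries differed by far more. No measure of dissociation time or cell viability per library was used here.

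**Figure D4:**
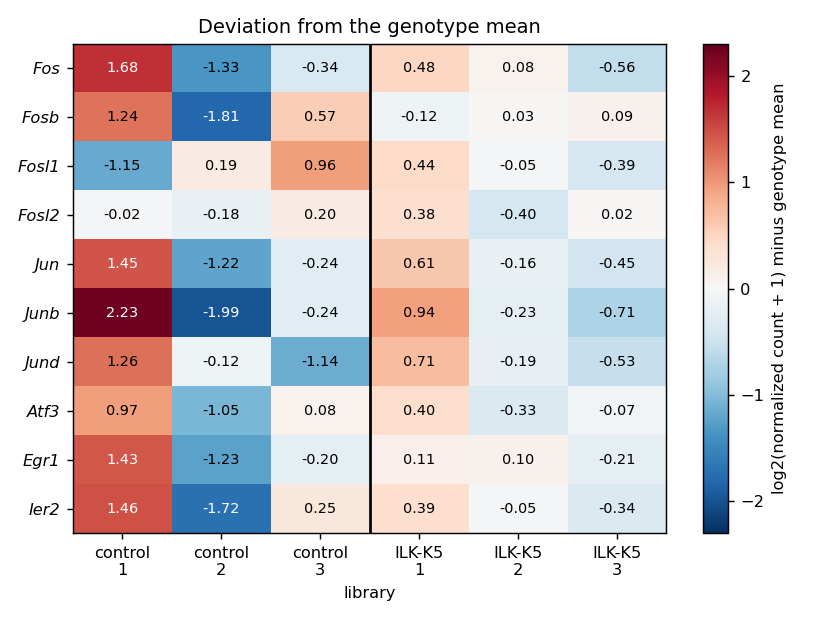
Deviation of each gene in each library from its genotype mean, in log2(normalized count + 1), with red above and blue below the mean. Control library 1 is red and control library 2 blue for most genes, Fosl1 runs the other way in control library 1, and the ILK-K5 libraries stay within 0.94 of their mean.

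Over the 6 libraries the log2 values of Fos and Jun had a Pearson r of 0.989 and a Spearman rho of 1, and r was 0.953 over 4 libraries without the 2 farthest from the median of Fos, which were control libraries 1 and 2. Fos and Fosb had r = 0.831, which fell to 0.408 without the same 2 libraries and so rested on them. The 21 pairs among Fos, Fosb, Jun, Junb, Atf3, Egr1 and Ier2, a group formed after the values were seen, had r of 0.822 to 0.999 with a median of 0.951. Pairs with Fosl1 had r of -0.641 to 0.362. These are descriptions over libraries that share their depth and normalization, and no p-value is given, because the genes were chosen with results of these libraries known. No correlation is given within replicates 2 and 3, which hold 4 libraries, and the values over 4 libraries above show only how much an r rested on 2 of them.

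The genes outside the list that followed Fos most closely, among the 11068 genes that averaged 50 or more normalized counts, included Ppp1r21 (Pearson r = 0.990 over 6 libraries), Gtf2ird1 (0.989), Alas1, the first enzyme of haem synthesis (0.988), and Vhl, which targets hypoxia-inducible factors for degradation (0.986). They varied less than Fos, with Vhl from 41.1 to 167 normalized counts. None of these 4 is usually counted among the immediate early genes. The genes that followed Fosl1 most closely included Gm11940 (r = 0.964), Lipm (0.958), Shroom2 (0.958) and Slc12a2 (0.952). Lipm, an epidermal lipase, had 15.4, 88.2 and 139 normalized counts in control and 60.3, 34.7 and 39.9 in ILK-K5 libraries. As for Fosl1, control library 1 was the lowest and control library 3 the highest. The genes named for Fos and for Fosl1 were picked as the highest of 11068 correlations over only 6 libraries. Among so many genes, values this high can arise without any link, and a link was not tested.

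Other immediate early genes were described as a list of 35, of which 33 had enough counts to be tested. Of these, 1 was called higher (3.03% of the list, beside 2.93% of all genes) and 0 lower. The median log2 fold change was 0.84, 16 genes (48.5%, beside 12.3% of all genes) had an unadjusted p-value under 0.05, and 14 (42.4%, beside 10.9% of all genes) had every ILK-K5 library above every control. DESeq2 called 7 of the 33 higher (21.2%, beside 4.72% of all genes) and 1 lower, and edgeR called 0. The called gene was Plk2, a stress-induced kinase, with 115, 128 and 204 normalized counts in control and 443, 414 and 344 in ILK-K5 libraries. Its log2 fold change was 1.46 (standard error 0.32, adjusted p = 0.039 in limma). The call held without control library 3 (adjusted p = 0.019) and was lost without any one of the other libraries (adjusted p of 0.076 to 0.189). The 2 genes with the highest FPKM were Dusp1, a phosphatase of MAP kinases, and Zfp36, which promotes decay of short-lived mRNAs. Dusp1 had 13903, 5497 and 7480 normalized counts in control and 17863, 12623 and 13883 in ILK-K5 libraries (log2 fold change 0.82, standard error 0.39, adjusted p = 0.465 in limma), with control library 1 overlapping as it did for Atf3. Zfp36 had 2146, 1223 and 4722 normalized counts in control and 5967, 8908 and 7105 in ILK-K5 libraries (log2 fold change 1.64, standard error 0.46, adjusted p = 0.104 in limma), without overlap. Control library 1 was highest and control library 2 lowest for 10 of these 33 genes (30.3%). The median SD of log2 values in control libraries was 0.64, against 1.34 for the 10 genes above. Egr4 was listed at 0 in all 6 libraries.

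Other leucine zipper factors that can pair with or stand beside AP-1 were a list of 22, of which 19 were tested, 2 called higher (10.5%, beside 2.93% of all genes) and 0 lower, with a median log2 fold change of 0.26. Cebpb, a factor of myeloid cells and of keratinocyte differentiation, had 11.6, 12.2 and 18.9 normalized counts in control and 99.0, 105 and 65.3 in ILK-K5 libraries (log2 fold change 2.58, standard error 0.47, adjusted p = 0.018 in limma). The call of Cebpb was lost without any one of the ILK-K5 libraries or control library 2 (adjusted p of 0.063 to 0.141). Atf1 and Atf4, the members with the highest FPKM, had log2 fold changes of -0.098 (adjusted p = 0.974) and 0.052 (adjusted p = 0.980, both limma). The order with control library 1 highest and control library 2 lowest was seen for 0 of these 19 genes.

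Of 26 kinases and transcription factors upstream of AP-1, all were tested, 1 was called higher (3.85%, beside 2.93% of all genes) and 0 lower, and the median log2 fold change was 0.39. The called gene was Elk3, a partner of the serum response factor, with 61.7, 91.2 and 63.9 normalized counts in control and 340, 241 and 234 in ILK-K5 libraries. Its log2 fold change was 1.90 (standard error 0.33, adjusted p = 0.015 in limma), and the call was lost without any one of the ILK-K5 libraries (adjusted p of 0.069 to 0.073). Mapk14, which encodes p38α, and Mapk3, which encodes ERK1, had the highest FPKM, with log2 fold changes of 0.47 (adjusted p = 0.780) and 0.39 (adjusted p = 0.866, both limma). The order with control library 1 highest and control library 2 lowest was seen for 8 of these 26 genes (30.8%, beside 16.3% of all genes). It was also seen for 3 of 7 basal keratinocyte markers (42.9%) and 2 of 26 tested targets of AP-1 (7.69%), so it was not particular to immediate early genes.

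Heat shock genes, which respond to protein damage rather than to growth signals, were tested for all 16 of the list, with 0 called higher and 1 lower (6.25%, beside 0.599% of all genes) and a median log2 fold change of -0.12. Hsp90aa1, the inducible HSP90, had 4543, 4466 and 4780 normalized counts in control and 1992, 2158 and 2216 in ILK-K5 libraries (log2 fold change -1.12, standard error 0.24, adjusted p = 0.035 in limma). Neither genotype showed the spread of the Fos and Jun genes here. The call was lost without any one of the 6 libraries (adjusted p of 0.059 to 0.188), while the fold change stayed between -1.15 and -1.07. Hsp90ab1 and Hspa8, the members with the highest FPKM, had log2 fold changes of -0.094 (adjusted p = 0.960) and 0.15 (adjusted p = 0.937, both limma). Control library 1 highest with control library 2 lowest was seen for 1 of these 16 genes.

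Genes known as targets of AP-1 were a list of 29, of which 26 were tested, 10 were called higher (38.5%, beside 2.93% of all genes) and 2 lower (7.69%, beside 0.599%). The median log2 fold change was 1.58, also with the 3 genes that had at most 3 reads in every control library at their lower bound, and 18 genes (69.2%, beside 10.9% of all genes) had every ILK-K5 library above every control. Mmp13, a collagenase, had 0, 3.0 and 2.2 normalized counts in control and 553, 581 and 356 in ILK-K5 libraries (adjusted p = 0.000313 in limma). Spp1, which encodes osteopontin, had 0, 4.6 and 0 in control and 309, 119 and 155 in ILK-K5 libraries (adjusted p = 0.00214 in limma). Vim, the intermediate filament of mesenchymal cells and leukocytes, had 28.9, 45.6 and 92.9 in control and 12428, 5391 and 4040 in ILK-K5 libraries (log2 fold change 6.99, standard error 0.51, adjusted p = 0.000255 in limma). The calls of Mmp13, Spp1 and Vim held without each single library.

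Among targets with a role in keratinocytes, Krt6a, a keratin of activated epidermis, had 1372, 1282 and 2518 normalized counts in control and 5412, 4527 and 4052 in ILK-K5 libraries (log2 fold change 1.495, standard error 0.32, adjusted p = 0.036 in limma). Cd44, the receptor of hyaluronan, had 2892, 2919 and 2125 in control and 6366, 6540 and 5508 in ILK-K5 libraries (log2 fold change 1.23, standard error 0.26, adjusted p = 0.037 in limma). The call of Cd44 was lost without any one of the 6 libraries (adjusted p of 0.055 to 0.189), and that of Krt6a without any one but control library 3 (0.086 to 0.143). The lower genes were Lor, which encodes loricrin of the cornified envelope, and Ereg, the growth factor epiregulin. Lor had 142, 123 and 126 in control and 2.3, 24.7 and 6.8 in ILK-K5 libraries (log2 fold change -3.91, standard error 0.72, adjusted p = 0.018 in limma). Ereg had 58.9, 263 and 285 in control and 23.9, 20.1 and 16.6 in ILK-K5 libraries (log2 fold change -2.98, standard error 0.62, adjusted p = 0.031 in limma). The call of Lor was lost without ILK-K5 library 3 (adjusted p = 0.062) or control library 2 (0.099), and that of Ereg without any library but control library 1 (0.072 to 0.166). For Mt2, a metallothionein with the highest FPKM of the list, the log2 fold change was 1.399 (adjusted p = 0.134 in limma).

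**Figure D5:**
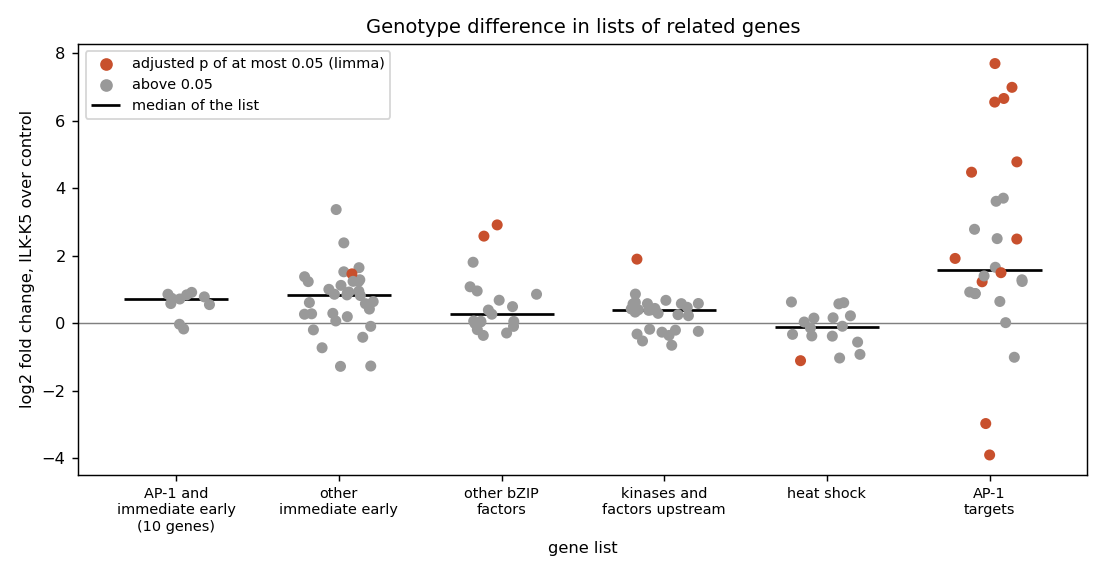
Log2 fold change (ILK-K5 over control) of each tested gene in the 10 genes and in 5 lists of related genes, with called genes in orange and a line at the median of each list. None of the 10 genes is called, the other lists hold 1 to 12 called genes, and the targets of AP-1 spread from -3.91 upwards.

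Markers of leukocytes moved with the genotype in the same libraries. In bulk RNA, fewer cells of a type and less RNA per cell cannot be told apart. Over all genes tested, 2.93% were called higher and 0.599% lower. All 15 tested of 16 macrophage markers were called higher, and their summed level was 431 to 635 normalized counts in control and 19181 to 25850 in ILK-K5 libraries. Ctss, Lyz2 and Csf1r had the most counts among them, with Ctss at 2.9 to 54.7 in control and 3439 to 6658 in ILK-K5 libraries. Langerhans and dendritic markers (3 of 6 tested called higher) summed to 80.1 to 689 and 16649 to 31393, neutrophil markers (2 of 4) to 33.4 to 56.9 and 219 to 298, T cell markers (1 of 5) to 160 to 184 and 305 to 384, and fibroblast markers (1 of 5) to 703 to 780 and 1545 to 2513. Ly6g and Retnlg, which define neutrophils, were listed at 0 in all ILK-K5 libraries, and Lum of fibroblasts at 0 in all control libraries. Among markers of the hair follicle itself, Cd34, whose protein was used in the sort, was the called member of 9 bulge markers, at 2009, 947 and 1960 normalized counts in control and 296, 560 and 433 in ILK-K5 libraries (log2 fold change -1.90, adjusted p = 0.024 in limma), a call lost without control library 1, control library 3, ILK-K5 library 1 or ILK-K5 library 3 (adjusted p of 0.057 to 0.091). Of 7 basal keratinocyte markers 0 were called, of 8 tested differentiated keratinocyte markers 1 was called lower (Lor), of 5 melanocyte markers 1 was called lower (Mitf), and of 3 endothelial markers 0 were called. Within control libraries 1 to 3 the summed macrophage markers were at 635, 630 and 431, the Langerhans and dendritic markers at 80.1, 465 and 689, and the differentiated keratinocyte markers at 3085, 8783 and 17190, while Fos was at 9172, 1137 and 2262 and Fosl1 at 60.8, 155 and 266. The order of the controls for Fosl1 was also that of the summed Langerhans and dendritic, differentiated keratinocyte, fibroblast and bulge stem cell markers. The bulge stem cell markers were at 46846, 59530 and 109883 in control libraries 1 to 3. The macrophage, neutrophil, T cell, endothelial, melanocyte and basal keratinocyte markers had other orders. With only 3 control libraries few orders are possible, so lists can share one without any link. The summed fibroblast markers differed little between the controls (703 to 780). The part of these cells in the values of the targets, of the other immediate early genes and of the 10 genes was not tested.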

How the data were processed

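Bulge SC RNA from 3 control and 3 ILK-K5 libraries was amplified (Ovation V2), prepared with Nextera XT and sequenced in pairs. According to the submitters' processing notes, the authors used TopHat2 2.0.14, Bowtie2 2.2.4, GRCm38 and DESeq2 1.6.3. The counting program is not given in the sources used here. The deposited signal values are normalized counts that the authors made by dividing reads per gene by a DESeq2 size factor, and whole reads were recovered from all values (100%, tolerance 0.01). Deposited FPKM values, also made by the authors, are the same counts times 1 constant per gene. The deposited table of the authors' own comparison (fold changes and p-values) was not used.

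Symbols, positions and exons came from GENCODE M21 (97.3% of genes matched) and promoter windows from RefSeq. Genotypes were compared with limma 3.58.1 (R 4.3.3, eBayes with a trend) on log2(normalized count + 1) for the 16368 genes that averaged 10 or more normalized counts, two-sided, called at a Benjamini-Hochberg adjusted p of at most 0.05. With 3 libraries per genotype, an exact permutation test on 1 gene cannot give less than 0.1. Alternatives were pseudocounts of 0.1 and 5, no filter, a mean of at least 50, quantile and TMM scaling, FPKM, edgeR 4.0.16, DESeq2 1.42.0, a replicate block, a term for replicate 1, replicates 2 and 3 only, and each library left out. The fits were tested on simulated counts. Named were the 10 genes, and of each related list the called genes (if more than 6, the 3 highest and 3 lowest) and the 2 of highest FPKM. Of marker lists the called genes or, if more than 3, those with most counts were named. Lhx2, Sox9, Itga6 and the genes overlapping in sequence were added after the values were seen. The 5 genes most correlated with Fos and with Fosl1 were also named. Some genes that meet these rules are not reported here. The genes and lists were chosen with earlier results of these data known.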

Additional observations from a re-analysis of the deposited data

How the results depend on the processing

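Of the 10 genes, 0 were called under each of the 19 alternatives, and the adjusted p-values were 0.094 (Fos without control library 1) or more. Fos, Fosb, Jund and Atf3 kept a positive log2 fold change throughout, from 0.047 to 1.55 for Fos and from 0.162 to 1.365 for Jund. With single libraries left out, the log2 fold change ranged from -0.029 to 1.30 for Jun, -0.158 to 1.95 for Junb, -0.065 to 1.26 for Egr1, -0.0033 to 1.59 for Ier2, -0.75 to 0.31 for Fosl1 and -0.227 to 0.17 for Fosl2, and quantile normalization gave 0.014 for Fosl2. Genes called over the whole table ranged from 217 to 554 higher (479 with all libraries) and 32 to 93 lower (98 with all). DESeq2 called 772 higher and 280 lower genes. Called genes numbered 4 to 13 among AP-1 targets (12 with all libraries), 0 to 1 among upstream factors, 0 among heat shock genes, 1 to 3 among other leucine zipper factors (median log2 fold change 0.169 to 0.332) and 0 to 4 among other immediate early genes. For other immediate early genes DESeq2 called 8, a pseudocount of 5 and quantile normalization 2 each, and FPKM and edgeR 0. For heat shock genes DESeq2 called 2, and FPKM, edgeR, no filter, quantile normalization and replicates 2 and 3 alone called 0. Other leucine zipper factors had a median of 0.208 with DESeq2, 0.316 with quantile normalization and 0.388 with replicates 2 and 3 alone, where 1 of them and 0 upstream factors were called. A term for replicate 1 against the others gave 846 higher and 286 lower genes, 13 other immediate early (39.4%, beside 5.17% of all genes higher) and 2 heat shock genes. The cause of these shifts was not tested. The replicate numbers were not used as pairs in the main fit. Deviations of same-numbered libraries correlated at 0.529, 0.0198 and 0.307, and control libraries 2 and 3 correlated best with ILK-K5 libraries 3 and 2. Control library 2 correlated with the ILK-K5 libraries at only -0.060 to 0.074. With 3 libraries per genotype, these correlations cannot tell whether same-numbered libraries were paired. A replicate block gave 848 higher and 269 lower genes, 12 other immediate early (36.4%, beside 5.18% higher) and 2 heat shock genes, and edgeR with the block, added after seeing the data, 215 lower, 7 and 2. The block called 0 of the 10 genes. The 3 libraries per genotype, with Ier2 at 27 reads in the poorest, limit what could be detected.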
